A study of Mus musculus with 12 samples.

Results

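The genes that carry ethanol to acetaldehyde, acetaldehyde to acetate and acetate to acetyl-CoA were followed in medial prefrontal cortex (PFC) of control and Fyn-null mice after saline or ethanol. The 10 genes were Adh1, Adh5, Adh7, Cat and Cyp2e1, then Aldh2, Aldh1a1, Aldh1b1 and Aldh3a2, and last Acss2. A probe set is a group of short array probes read together as 1 signal. Every probe set that the platform annotation assigns to one of these symbols and to no other gene was taken, which gave 19 of 45037 probe sets and 10 of 18193 genes. A further probe set (1), annotated with Acss2 and another gene, was left out. A filter on low mean signal, set on all probe sets, kept 11 of the 19, and these stand for 7 of the genes by name: Adh5, Adh7, Cat, Aldh2, Aldh1a1, Aldh3a2 and Acss2.

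The control mice were B6129SF2/J and the Fyn-null mice were B6;129S7-Fyntm1Sor/J, which lack the Src family kinase Fyn. All mice were male and labelled as 12 weeks old, which the methods give as their age on arrival, and were accustomed to injection with saline for 3 days before they received saline or 3 g/kg ethanol by intraperitoneal injection. PFC was taken 4 h later and tissue of 3 mice was pooled for each array. Genotype and treatment gave 4 groups with 3 pools each, listed throughout by replicate number: 1, 2 and 3 for control saline, 1, 2 and 4 for control ethanol, 2, 3 and 4 for Fyn-null saline, and 1, 2 and 3 for Fyn-null ethanol. The genotypes came from different stocks, and what Fyn does and what the stock does cannot be told apart, and single mice are not resolved within a pool. Fyn itself, by its brighter probe set, read 9.31, 8.74 and 9.65 on the log2 scale in the control saline pools and 8.89, 8.64 and 9.45 in the Fyn-null saline pools. Replicate 2 of the pools labelled control saline and replicate 4 of those labelled Fyn-null saline thus stood with the other genotype, whereas the ethanol groups parted by genotype (9.33 to 9.70 in control, 8.75 to 9.01 in Fyn-null). Values without both of these saline pools are added for Adh5, Aldh1a1, Cat, Acss2 and the brightest probe set of Aldh2.

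Ethanol is oxidised to acetaldehyde by alcohol dehydrogenases in the cytosol, by cytochrome P450 2E1 in the endoplasmic reticulum and by catalase, a peroxisomal enzyme that uses hydrogen peroxide to do so. Aldehyde dehydrogenases, chiefly the mitochondrial ALDH2, turn acetaldehyde into acetate, and acetyl-CoA synthetases such as ACSS2 activate acetate to acetyl-CoA, a substrate for lipid synthesis and histone acetylation. Classical alcohol dehydrogenase dominates in liver, while catalase and cytochrome P450 2E1 are regarded as the main oxidising enzymes of brain.

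Promoter sequences are shown for Aldh1a1, Cat and Acss2, the members whose probe sets past the low-signal filter differed most between groups. RefSeq tables (build GRCm38.p6) held start sites for 9 of the 10 members, 11 windows in all. Each line gives the 250 bases upstream of a start site, 5′ to 3′ on the strand of the gene, in lower case, with CCAAT boxes (CCAAT or its complement ATTGG) and GC boxes (GGGCGG or its complement CCGCCC) in capitals.
Aldh1a1 start site 1 (chr19:20492333-20492582, plus strand): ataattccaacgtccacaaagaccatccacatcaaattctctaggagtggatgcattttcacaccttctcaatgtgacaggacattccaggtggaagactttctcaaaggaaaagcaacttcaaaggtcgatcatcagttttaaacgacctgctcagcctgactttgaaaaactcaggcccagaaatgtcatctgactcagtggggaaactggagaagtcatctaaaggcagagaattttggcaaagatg
Aldh1a1 start site 2 (chr19:20601718-20601967, plus strand): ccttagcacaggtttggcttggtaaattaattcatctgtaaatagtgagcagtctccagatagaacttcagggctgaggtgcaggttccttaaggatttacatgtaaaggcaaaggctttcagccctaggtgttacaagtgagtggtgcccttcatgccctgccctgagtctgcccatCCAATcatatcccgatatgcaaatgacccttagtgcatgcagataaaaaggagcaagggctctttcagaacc
Cat (chr2:103485154-103485403, minus strand): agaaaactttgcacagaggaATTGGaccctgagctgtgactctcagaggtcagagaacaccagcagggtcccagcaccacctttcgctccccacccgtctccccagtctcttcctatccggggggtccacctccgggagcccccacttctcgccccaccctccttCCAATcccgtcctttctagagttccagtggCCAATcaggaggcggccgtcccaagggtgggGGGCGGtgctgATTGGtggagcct
Acss2 (chr2:155517793-155518042, plus strand): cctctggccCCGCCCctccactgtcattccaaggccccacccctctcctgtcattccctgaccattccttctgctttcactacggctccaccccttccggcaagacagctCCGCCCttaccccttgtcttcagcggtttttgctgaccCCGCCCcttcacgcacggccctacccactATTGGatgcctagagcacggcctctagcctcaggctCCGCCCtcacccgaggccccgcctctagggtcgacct

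The Cat window held 4 CCAAT boxes and 1 GC box, and the Acss2 window 1 CCAAT box and 4 GC boxes. Aldh1a1 had 1 CCAAT box at its second start site and neither motif at the first. Of all 32851 RefSeq windows of that length, 33.8% held a CCAAT box and 32.7% a GC box on either strand. The letters TATAAA were in none of these 4 windows and in 12.4% of all windows. Bases G and C made up 62% of the Cat window and 64% of the Acss2 window, against 42.8% and 46.4% at the Aldh1a1 start sites. These matches describe letters in a window and no factor was measured there.

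Signals were log2 values after robust multi-array averaging (RMA), and the filter left out the 45% of probe sets with the lowest mean over the 12 pools. The lowest mean kept was 5.15. Adh1, the classical alcohol dehydrogenase, had 1 probe set with values of 4.42 to 5.02, under that limit in every pool. Cyp2e1 (cytochrome P450 2E1) lay at 4.62 to 4.89 and Aldh1b1, a mitochondrial aldehyde dehydrogenase, at 4.80 to 5.13, also under the limit in every pool. A low array signal does not show that a transcript is absent. Of the liver markers checked beside them, albumin (Alb) was below the filter with a mean of 3.79, while Apoa1 (5.41) and Ttr (6.13) passed it. Ttr was also on the list of choroid plexus markers.

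Within the alcohol dehydrogenase cluster, the annotation orders the genes Adh7, Adh1, Adh6a, Adh6b, Adh6-ps1, Adh4 and Adh5. Adh5, the glutathione-dependent formaldehyde dehydrogenase that most tissues carry, had 1 probe set at 9.01 to 9.48 and another at 3.85 to 4.47 that was below the filter. Adh7, a retinol-oxidising form best known from stomach, had 1 probe set past the filter at a low signal (5.59 to 5.93) and 1 at 2.07 to 2.47. Probe sets of one gene thus lay on both sides of the limit for Adh5, Adh7, Aldh2 and Acss2.

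**Figure D1:**
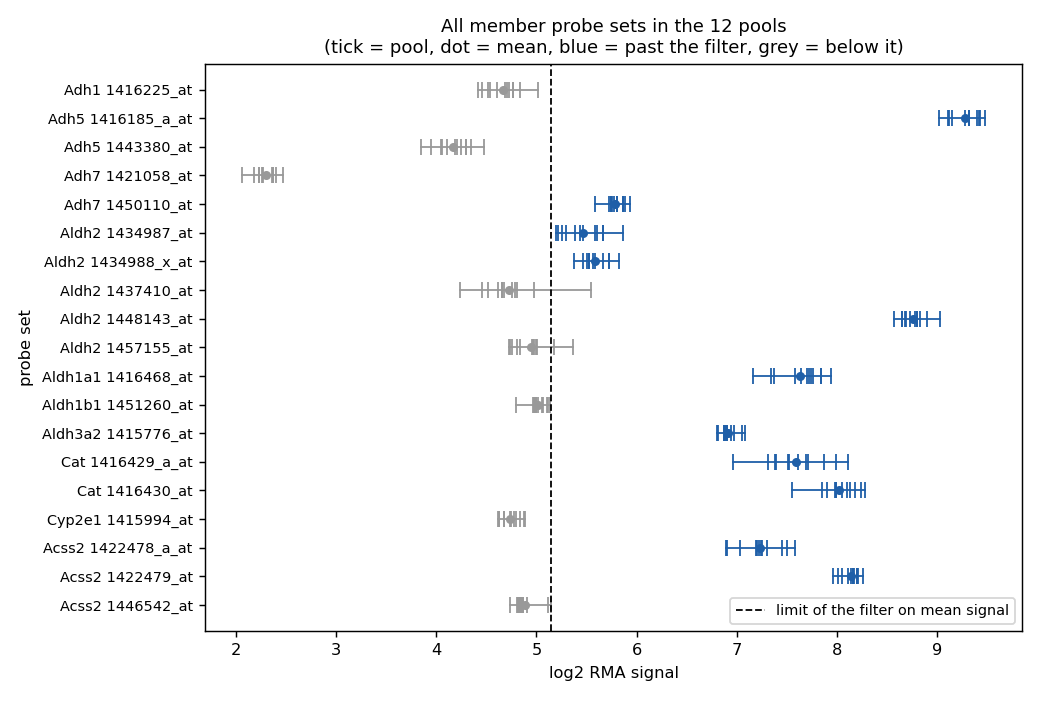
Log2 RMA signal of the 19 member probe sets in the 12 pools (ticks), with the mean as a dot and the filter limit of 5.15 as a dashed line. The 11 probe sets in blue passed the filter, and the single probe sets of Adh1, Cyp2e1 and Aldh1b1, in grey, stayed below it. Signals of different probe sets are not comparable with each other as transcript levels.

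Differences between groups were tested with limma across all 24770 probe sets past the filter, with Benjamini-Hochberg adjustment and a threshold of 0.05. No member was called in any of the 7 comparisons. After ethanol in control mice 0 of 11 member probe sets were called, where 1.43% of all probe sets were. The same count of 0 stood beside 0.4% of all probe sets for ethanol in Fyn-null mice and 6.81% for ethanol over both genotypes together. For Fyn-null against control after saline, the same contrast after ethanol, genotype over both treatments and the interaction (the Fyn-null ethanol response minus the control response), 0% of all probe sets were called.

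At an unadjusted p under 0.05 the members were 2 of 11 for ethanol in control mice (18.9% of all probe sets), 2 for ethanol in Fyn-null mice (11.7%) and 0 for ethanol over both genotypes (24.3%). For Fyn-null against control they were 0 after saline (1.89%), 3 after ethanol (13.6%) and 1 over both treatments (11.1%). The interaction had 3 (4.13%). Each of these belonged to Aldh1a1, Cat or Acss2. The median of the 11 log2 differences was -0.13 for ethanol in control mice, with 2 above and 9 below 0, beside a median of -0.041 over all probe sets. For ethanol in Fyn-null mice it was 0.022, with 7 above 0, beside -0.0073. The contrasts share groups, so these counts are not separate evidence.

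Cat encodes catalase, and its values are not independent of the study, which lists it among ethanol-responsive genes chosen on these samples. The first of its 2 probe sets, 1416429_a_at, read 7.52, 7.51 and 7.71 in control mice after saline and 7.69, 6.96 and 7.38 after ethanol. Fyn-null pools read 7.61, 7.31 and 7.39 after saline and 8.11, 7.87 and 7.98 after ethanol. The 3 Fyn-null ethanol pools were thus the highest of all 12, and the other 3 groups overlapped. After ethanol, Fyn-null exceeded control by 0.64 (SE 0.15, 1.56-fold, n = 3 pools each, limma adjusted p = 0.133).

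Ethanol against saline for this Cat probe set was 0.55 in Fyn-null mice (SE 0.15, 1.47-fold, adjusted p = 0.188) and -0.24 in control mice (SE 0.15, adjusted p = 0.42). The responses differed by 0.79 (SE 0.22, unadjusted p = 0.0035), with an adjusted p of 0.992. The response in control mice leaned on single pools, at -0.41 without control ethanol replicate 1 and -0.047 without replicate 2. Without both doubted saline pools the Cat responses were -0.27 in control and 0.53 in Fyn-null mice, 0.80 apart (limma adjusted p = 0.935). The second Cat probe set, 1416430_at, was 8.13, 8.10 and 7.85 in control saline and 7.98, 7.90 and 7.98 in control ethanol pools. Its Fyn-null saline pools were at 8.24, 7.99 and 7.55, and its Fyn-null ethanol pools at 8.28, 8.05 and 8.18. The ethanol groups again did not overlap, but by 0.21 (SE 0.15, 95% interval -0.10 to 0.53, adjusted p = 0.561). Its interaction was 0.31 (SE 0.21), which became 0.090 without both doubted saline pools. Whether the probe sets of Cat differ from each other was not tested.

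Adh5 (1416185_a_at) was 9.40, 9.32 and 9.48 in control saline, 9.41, 9.15 and 9.11 in control ethanol, 9.32, 9.10 and 9.27 in Fyn-null saline and 9.43, 9.01 and 9.32 in Fyn-null ethanol pools. Groups overlapped in the ethanol contrasts and between genotypes after ethanol. Fyn-null saline pools were all just below control saline pools, at -0.17 (SE 0.12, limma adjusted p = 1). The log2 difference was -0.23 (adjusted p = 0.772) without both saline pools whose Fyn signal stood with the other genotype. For Adh7 (1450110_at) no group mean differed from another by more than its probe set's ethanol response in control mice of 0.12 (SE 0.085, adjusted p = 0.462).

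Aldh1a1 encodes a cytosolic aldehyde dehydrogenase best known for making retinoic acid, and its single probe set read 7.74, 7.70 and 7.58 in control saline pools. The control ethanol pools read 7.34, 7.37 and 7.16. The Fyn-null pools read 7.94, 7.72 and 7.64 after saline and 7.76, 7.84 and 7.84 after ethanol. All 3 control ethanol pools lay below the other 9. The Fyn-null saline pools overlapped with the control saline and the Fyn-null ethanol pools, and the Fyn-null ethanol pools lay just above the control saline pools.

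After ethanol, Aldh1a1 was 0.52 higher in Fyn-null than in control mice (SE 0.094, 95% interval 0.32 to 0.73, 1.44-fold, n = 3 pools each). The adjusted p was 0.104 in limma, from an unadjusted p of 0.000118, and the smallest adjusted p of any probe set in this contrast was 0.0544. Ethanol against saline was -0.38 in control mice (SE 0.094, 1.30-fold, adjusted p = 0.0681) and 0.049 in Fyn-null mice (SE 0.094, 95% interval -0.16 to 0.25). The responses differed by 0.43 (SE 0.13, unadjusted p = 0.00719, adjusted p = 0.992). After saline the genotypes differed by 0.093 (SE 0.094, 95% interval -0.11 to 0.30). Without both doubted saline pools the Aldh1a1 response was -0.37 in control mice (limma adjusted p = 0.125) and -0.015 in Fyn-null mice, the interaction 0.35 (adjusted p = 0.935) and the saline difference 0.17 (adjusted p = 0.778).

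**Figure D2:**
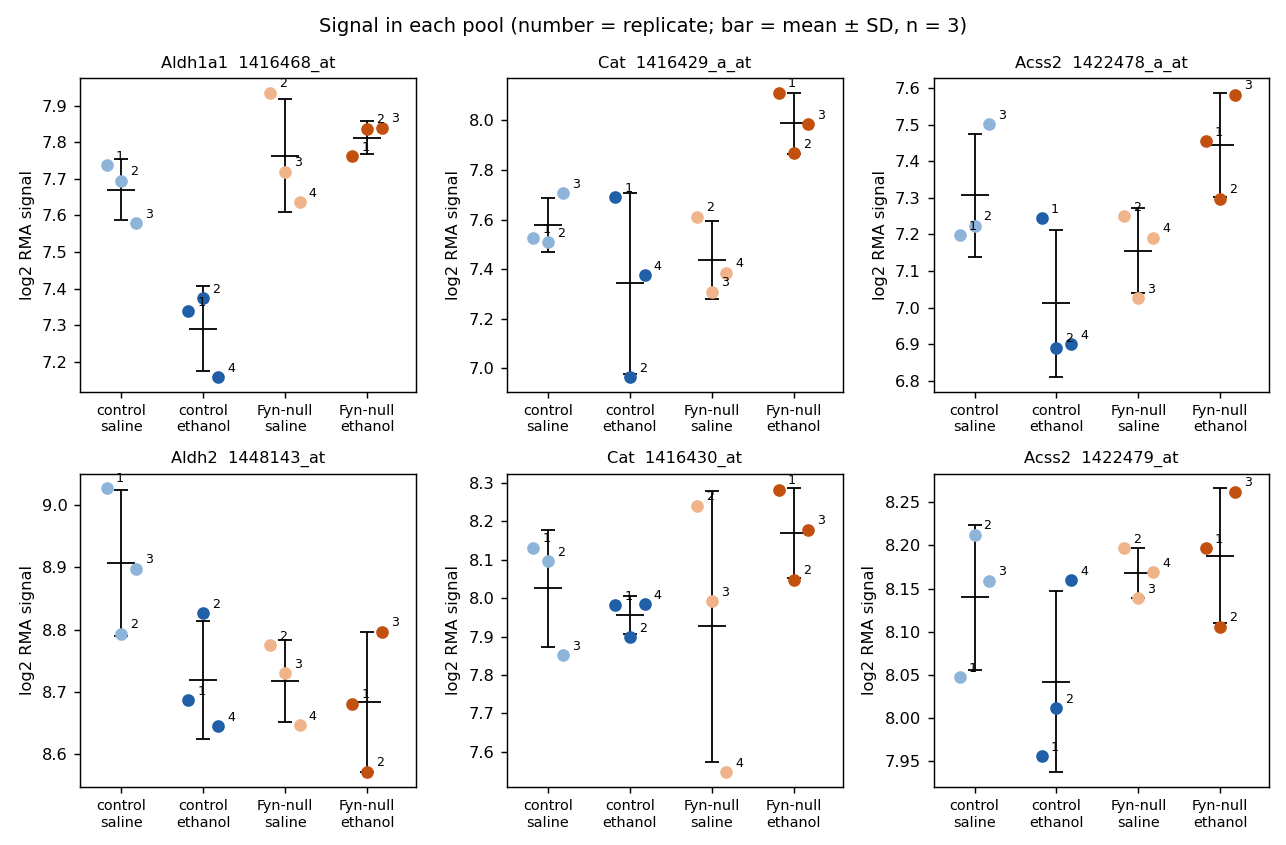
Log2 RMA signal in each pool for the probe sets of Aldh1a1, Cat, Acss2 and the brightest of Aldh2, by group, with the replicate number beside each point and bars for the mean and SD (n = 3 pools). For Aldh1a1 the control ethanol pools (7.16 to 7.37) lie below all others, and for the first Cat probe set the Fyn-null ethanol pools (7.87 to 8.11) lie above all others. Each vertical axis has its own range and does not start at 0.

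Over both treatments Aldh1a1 was 0.31 higher in Fyn-null mice (SE 0.087, adjusted p = 0.321). With both doubted saline pools left out, this became 0.38 (adjusted p = 0.0406, limma), which passed the threshold, as did 2.7% of all probe sets. The contrast after ethanol uses no saline pool except for its estimate of the spread. It stayed at 0.52 without them, with an adjusted p of 0.0300 where 1.05% of all probe sets passed, and at an adjusted p of 0.0424 (0.779%) in a fit of the ethanol groups alone. Leaving out each pool in turn gave 0.46 to 0.57, with adjusted p-values of 0.0566 to 0.44.

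Aldh2 encodes the mitochondrial enzyme that clears most acetaldehyde. Its brightest probe set, 1448143_at, was 9.03, 8.79 and 8.90 in control saline and 8.69, 8.83 and 8.65 in control ethanol pools. Fyn-null pools were at 8.78, 8.73 and 8.65 after saline and 8.68, 8.57 and 8.80 after ethanol. Control saline pools were the highest on average, and only the saline groups did not overlap, with replicate 2 of control and replicate 2 of Fyn-null nearly equal.

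In limma this Aldh2 probe set differed by -0.19 between ethanol and saline in control mice (SE 0.090, 95% interval -0.38 to 0.0096, adjusted p = 0.286). Fyn-null against control was also -0.19 after saline (SE 0.090, adjusted p = 1) and -0.036 after ethanol (SE 0.090). Without both doubted pools the saline value was -0.21 (adjusted p = 0.694) and the control response -0.24 (adjusted p = 0.226). The weaker probe sets of Aldh2 past the filter, 1434987_at and 1434988_x_at, were lower in all 3 Fyn-null ethanol pools than in all 3 Fyn-null saline pools. Their log2 differences were -0.26 (SE 0.15, limma adjusted p = 0.549) and -0.14 (SE 0.11, adjusted p = 0.675). Mean signals of 5.47 and 5.58 put them near the filter limit of 5.15. In the same contrast the brightest probe set, 1448143_at, was at -0.034 (SE 0.090, adjusted p = 0.930), with overlapping groups. The suffix of 1434988_x_at marks probes that may also bind other transcripts.

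A probe set of Aldh2 below the filter, 1437410_at, ran the other way in control mice. It was 4.75, 4.24 and 4.46 in control saline and 5.54, 4.97 and 4.78 in control ethanol pools, so the groups did not overlap, and only 1 pool, control ethanol replicate 1, was above the limit. In a limma fit of all 45037 probe sets the difference was 0.62 (SE 0.17, adjusted p = 0.124). Another below the filter, 1457155_at, was 5.18, 5.00 and 5.36 in Fyn-null ethanol pools and 4.73 to 4.99 in the other 9. In the same limma fit its adjusted p was 0.41 for ethanol in Fyn-null mice and 0.302 for genotype after ethanol.

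Aldh3a2, a microsomal fatty aldehyde dehydrogenase, had the narrowest range of the 11 probe sets past the filter, 6.81 to 7.08 over the 12 pools. Its ethanol response was 0.0011 in control mice (SE 0.086, 95% interval -0.19 to 0.19) and 0.088 in Fyn-null mice (SE 0.086), where the 3 ethanol pools (6.90 to 7.05) lay just above the 3 saline pools (6.87 to 6.90).

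Acss2, the cytosolic and nuclear acetyl-CoA synthetase, had a probe set, 1422478_a_at, at 7.20, 7.22 and 7.50 in control saline and 7.24, 6.89 and 6.90 in control ethanol pools. Fyn-null pools were at 7.25, 7.03 and 7.19 after saline and 7.45, 7.30 and 7.58 after ethanol. The Fyn-null ethanol pools were above all Fyn-null saline and all control ethanol pools, and control saline overlapped with each group. Fyn-null exceeded control after ethanol by 0.43 (SE 0.12, 95% interval 0.17 to 0.70, 1.35-fold, limma adjusted p = 0.174).

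The ethanol response of this Acss2 probe set was -0.30 in control mice (SE 0.12, adjusted p = 0.221) and 0.29 in Fyn-null mice (SE 0.12, adjusted p = 0.392). The responses differed by 0.59 (SE 0.17, unadjusted p = 0.00536, adjusted p = 0.992). Over both genotypes the mean response was -0.0035 (SE 0.12). Without both doubted saline pools the Acss2 responses were -0.34 and 0.31, and their difference had an adjusted p of 0.935. The control response was -0.20 without control saline replicate 3. The second probe set, 1422479_at, stayed within 7.96 to 8.26 in the 12 pools, with Fyn-null above control after ethanol by 0.15 (SE 0.081, 95% interval -0.031 to 0.32) and overlapping groups. Its interaction was 0.12 (SE 0.11).

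**Figure D3:**
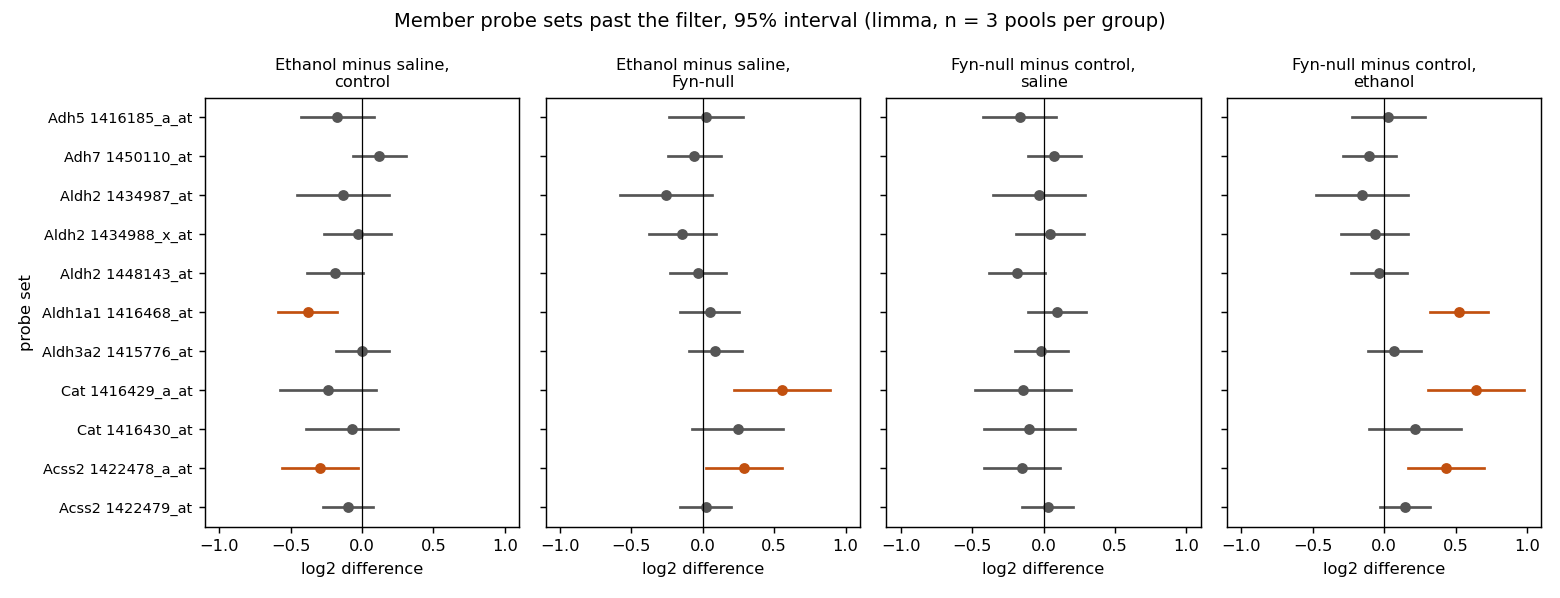
Log2 differences of the 11 member probe sets past the filter with 95% intervals from limma (n = 3 pools per group), in 4 comparisons. Orange marks an unadjusted p under 0.05, and no probe set passed after adjustment. The first Cat and Acss2 probe sets lie on opposite sides of 0 after ethanol in the 2 genotypes, and Aldh1a1 lies below 0 in control mice and near 0 in Fyn-null mice.

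Between genotypes after ethanol, the groups of 4 of 11 member probe sets did not overlap, where 20.3% of all probe sets had groups apart. All 4 (Aldh1a1, both of Cat and the first of Acss2) were higher in Fyn-null mice, as were 13.8% of all probe sets. After saline 3 of 11 had groups apart (5.16% of all). In Fyn-null mice Adh7 was higher (2.94%), by only 0.075 (SE 0.085), and Adh5 and the brightest Aldh2 were lower (2.22%). For Adh5 and Aldh2 the doubted control replicate 2 was the control pool nearest to the Fyn-null pools. For ethanol in control mice there were 2 (23%), Aldh1a1 lower (16.3%) and Adh7 higher (6.77%). For ethanol in Fyn-null mice there were 5 (18.1%). Cat, Acss2 and Aldh3a2 were higher (8.28%), and the weaker pair of Aldh2 probe sets past the filter was lower (9.81%).

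Signs of RNA quality moved with ethanol. The log2 signal of the actin 3′ control probe set minus that of its 5′ partner was 0.98 to 1.45 in control saline and 1.31 to 1.41 in Fyn-null saline pools. After ethanol it was 0.71 to 1.01 in control and 0.76 to 1.15 in Fyn-null pools. With this difference as a covariate, chosen after the data were seen, all probe sets called for ethanol in control mice fell from 355 to 18, and members called remained 0. Aldh1a1 in that contrast was -0.50 (adjusted p = 0.161), and between genotypes after ethanol it was 0.54 (adjusted p = 0.121).

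Under the same covariate the genotype difference after ethanol was 0.63 for Cat and 0.43 for Acss2 (first probe sets). Weighting arrays by their agreement passed more members: Aldh1a1, both Acss2 probe sets and the first of Cat for genotype after ethanol, with limma adjusted p-values of 0.00316 to 0.0336. All probe sets called rose from 0 to 3975 (16%) there. The weights gave Fyn-null ethanol replicate 3 a value of 10.3 against 0.45 to 1.45 for the other 11 pools, and whether those calls hold without that pool was not tested.

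**Figure D4:**
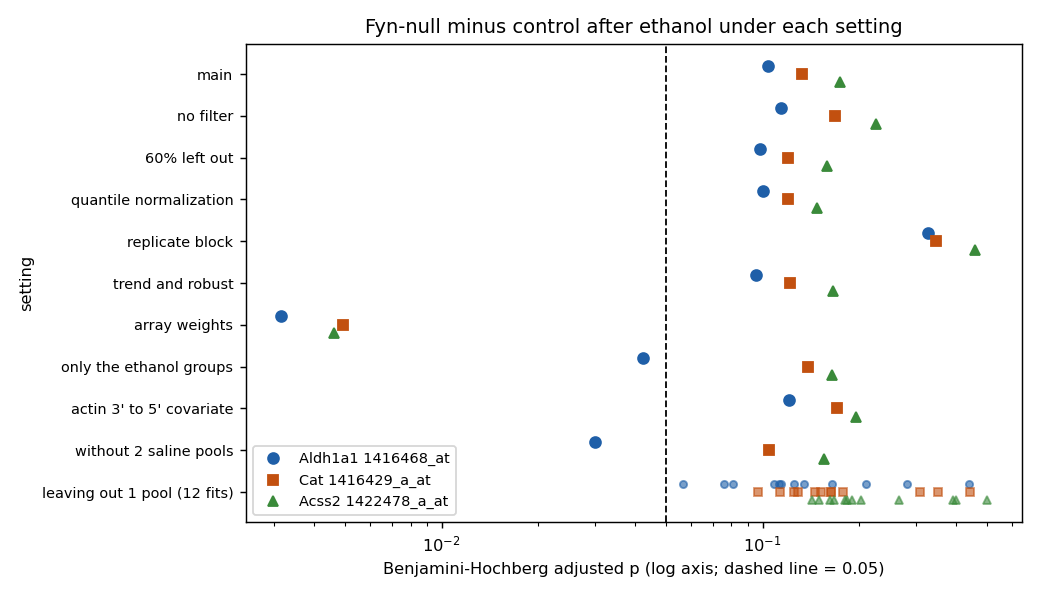
Adjusted p (log axis) of the Fyn-null minus control difference after ethanol for Aldh1a1, Cat and Acss2 (first probe sets) under each setting, with the threshold of 0.05 as a dashed line. Aldh1a1 fell left of the line with array weights, in the fit of the ethanol groups alone (0.0424) and without both doubted saline pools (0.0300), and Cat and Acss2 did so with array weights alone.

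Markers of vessel endothelium also moved with ethanol. Over all 6 of the listed endothelial markers, each past the filter, the mean log2 signal was 7.51 to 7.61 in control saline and 7.10 to 7.29 in control ethanol pools. In Fyn-null mice it was 7.52 to 7.67 after saline and 7.26 to 7.46 after ethanol. For ethanol in control mice 4 of 6 fell and 1 (Slc2a1) rose, where 1.43% of all probe sets were called, and in Fyn-null mice 2 fell and 1 rose (0.4%). Cldn5, a tight junction protein, differed between genotypes after ethanol by 0.37 (SE 0.087, adjusted p = 0.132). Of 4 meningeal markers 3 passed the filter and none was called. Their mean over all 4 was 6.54 to 6.61 in control ethanol and 6.64 to 6.92 in Fyn-null ethanol pools, without overlap, and 6.40 to 6.80 and 6.49 to 6.70 in the saline groups. Of all single probe sets, 20.3% had groups apart between genotypes after ethanol. Median genotype differences after ethanol over the marker lists ran from -0.24 to 0.23. The lowest was the 1 erythrocyte marker past the filter (Alas2), and the highest those 3 meningeal markers. The 5 oligodendrocyte markers past the filter were at -0.13 and the 6 endothelial markers at 0.14. Of 5 microglia markers past the filter, 1 (Aif1) fell for ethanol in control mice. Alas2 fell by 0.37 after ethanol over both genotypes (SE 0.089, limma adjusted p = 0.0285), where 6.81% of all probe sets were called. In a tissue sample, fewer cells of a type and less RNA per cell cannot be told apart, and the part of these markers in the member values was not tested.

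Neuron, astrocyte and cortex markers were past the filter wherever the array held them. Means over the 6 neuron markers were 11.3 to 11.4 in control ethanol and 11.2 to 11.3 in Fyn-null ethanol pools. Between genotypes after ethanol 2 of these 6 were higher in Fyn-null mice, and none was called. Slc17a7 had the smallest p of them, at -0.48 (SE 0.14, limma adjusted p = 0.174). No member lies on the chromosome that holds Fyn. The genes whose signal ran most like that of Aldh1a1 over the 12 pools were Shisa5 (Pearson r = 0.94), Syncrip (0.93) and Moxd1 (0.92), a description over pools that share the group differences.

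Other genes of these routes were counted by lists with 1 probe set a gene. Of 9 other alcohol and aldehyde reductases past the filter (of 12 listed), 12 of 16 other aldehyde dehydrogenases, 6 of 10 microsomal oxidation partners, 20 of 23 genes of peroxide and redox defence, 19 of 25 peroxisomal genes and 12 of 13 genes of NADH shuttles and lactate dehydrogenase, 0 were called in any comparison. Of 8 past the filter (of 12 listed) for acetate and acetyl-CoA use, 1 was called, lower after ethanol over both genotypes, where 6.81% of all probe sets were called.

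That gene was Slc16a1, the monocarboxylate transporter MCT1, which carries lactate, ketone bodies and acetate across membranes, at the blood-brain barrier among other sites. It was 7.65, 7.75 and 7.97 in control saline and 7.38, 7.34 and 7.59 in control ethanol pools. Fyn-null pools were at 7.95, 7.69 and 7.76 after saline and 7.53, 7.26 and 7.48 after ethanol. Ethanol pools lay below saline pools in both genotypes without overlap.

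Slc16a1 fell by 0.36 over both genotypes (SE 0.077, limma adjusted p = 0.0162). Within control mice the value was -0.35 (SE 0.11, adjusted p = 0.132) and within Fyn-null mice -0.38 (SE 0.11, adjusted p = 0.22). Without both doubted saline pools the value over both genotypes was -0.38 (adjusted p = 0.0373). With the actin difference as a covariate it was -0.16 (adjusted p = 0.752), and as the mean of its 2 probe sets -0.18 (adjusted p = 0.0578).

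Of the redox genes, none of which was called, Hmox1 (heme oxygenase) had the smallest p for ethanol in control mice, at 0.29 (SE 0.13, limma adjusted p = 0.248). Among peroxisomal genes Abcd2, a transporter of very long chain fatty acids, was 0.51 higher in Fyn-null than in control mice after ethanol (SE 0.15, adjusted p = 0.178). Among reductases Dhrs4 was -0.37 after ethanol in control mice (SE 0.13, adjusted p = 0.168). Cbr3 was 0.26 after ethanol over both genotypes (SE 0.083, limma adjusted p = 0.0754), and Slc25a12 of the NADH shuttles 0.16 (SE 0.052, adjusted p = 0.0764). Aldh7a1 was 0.23 higher in Fyn-null mice over both treatments (SE 0.074, limma adjusted p = 0.336). Among aldehyde dehydrogenases Aldh18a1, an enzyme of proline synthesis, was -0.19 after ethanol over both genotypes (SE 0.072, adjusted p = 0.123), and Aldh1l1, an astrocyte marker, was 0.19 between genotypes after ethanol (SE 0.074, adjusted p = 0.295). For genotype after ethanol, the median log2 differences of the 7 lists ran from 0.027 for aldehyde dehydrogenases to 0.17 for microsomal partners, beside 0.028 over all probe sets.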

How the data were processed

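PFC RNA of 12 pools was measured on Affymetrix mouse arrays. The submitters' processing notes name affy and RMA as what the authors used to make the deposited log2 values. The sources used here give no versions. The methods describe a step for hybridization batch effects, but not whether it was applied to the deposited values. After 64 control probe sets were removed, a filter dropped the 45% of the other 45037 that had the lowest mean over all arrays and kept 24770. Array medians were 5.40 to 5.48. Symbols came from the platform annotation.

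Group means were fitted with limma 3.58.1 (lmFit, eBayes) in R 4.3.3 for 5 contrasts, and genotype and treatment as additive terms for the other 2, with Benjamini-Hochberg adjustment over all 24770. The fit was tested on simulated data. The members and lists were chosen with earlier results of these data known. Named genes were all members, the 3 closest to Aldh1a1, and a part of the list genes. The latter were called genes (at most 4 per comparison) or else the smallest p of a list in a comparison, and not all of them are printed. Markers of endothelium, meninges, microglia, erythrocytes, hepatocytes, neurons, astrocytes and cortex, Fyn and actin are given beside results. Lists of oligodendrocyte and choroid plexus markers were run too, and no gene of either was called. Alternatives were other filters, quantile normalization, a replicate block, trend and robust eBayes, array weights, the compared groups alone, leaving out each pool and means over probe sets. Leaving out both doubted saline pools and the actin covariate were added after seeing the data. With 3 pools per group the median standard error was 0.11, and 0.076 in the additive fit. The pools per group limit the precision.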

Additional observations from a re-analysis of the deposited data

How the results depend on the processing

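No member probe set was called in any of the 7 comparisons without a filter, with 60% left out, with a further quantile normalization, with trend and robust eBayes, with the actin covariate, or when any of the 12 pools was left out (0 to 0 in each). Array weights gave 1 call for ethanol in control mice (Aldh1a1, limma adjusted p = 0.0485), 2 for ethanol in Fyn-null mice (Cat, 0.0135, and Acss2, 0.0132) and 4 for genotype after ethanol, beside 2.04%, 11.2% and 16% of all probe sets, and their iteration stopped before reaching its tolerance. Fitting only the compared groups gave 1 for genotype after ethanol. Without both doubted saline pools there was 1 for genotype after ethanol and 1 for genotype over both treatments, Aldh1a1 in each case. Of 1563 member values under alternatives 10 passed the threshold and 70 changed sign, none of the latter above 0.134 in size or with p under 0.05 in the planned fit. Leaving out 1 pool moved all probe sets called to 76 to 410 for ethanol in control mice, 33 to 145 in Fyn-null mice, 770 to 1625 over both genotypes, 0 to 35 for genotype after ethanol and 0 to 129 for genotype over both treatments. Leaving out 1 pool moved the Cat difference between genotypes after ethanol to 0.45 to 0.82 and that of Acss2 to 0.36 to 0.55.

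Replicate numbers were not taken as pairing the pools. Deviations from the group means of same-numbered pools correlated at -0.43 to 0.32 over 13 pairs, above 0.1 in 3, and 2 of 12 pools resembled most a pool of their own number. With the replicate block 0 members were called in each comparison, and all probe sets called were 36 for ethanol in control mice, 26 in Fyn-null mice and 710 over both genotypes, where Slc16a1 had an adjusted p of 0.0593. Slc16a1 passed when any pool was left out (0.0145 to 0.0434).

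Among the listed genes of these routes, limma on means over all probe sets of a gene called Pex13 for ethanol in control mice (-0.33, adjusted p = 0.049). It also called Aldh18a1 (-0.17, adjusted p = 0.0269) and Cyb5b (0.39, adjusted p = 0.0129) for ethanol over both genotypes. The share of all genes called by such means is not given, nor are such means for the members. Of single probe sets, 1.43% and 6.81% were called in these comparisons. Signals near the filter limit bound what the arrays can show for Adh1, Cyp2e1 and Aldh1b1.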
